A study of Mus musculus with 24 samples.

Results

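The 10 genes by which retinal Müller glia keep their surroundings stable are described here in 8 peak lists of mouse retina: Glul, Rlbp1, Slc1a3, Kcnj10, Aqp4, Car2, Dkk3, Apoe, Clu and Vim. They were chosen by symbol, and all 10 were found among the 21887 protein-coding genes of a RefSeq table of GRCm38.p6. For each gene, every peak that touched the gene or 5 kb on either side was recorded, with 50 kb as a second distance. The lists come from CUT&RUN, in which an antibody brings a nuclease to a chromatin protein and the released DNA is sequenced. Retina from wild-type mice was taken in the neonate, at postnatal day 2 (P2), and near the end of retinal maturation, on day 17 (P17), and each reaction used 600000 nuclei. At each age the labels name 4 SOX8 libraries from 2 antibodies, 2 SOX9 libraries, 2 for each of the histone marks H3K4me3 and H3K27ac, and 2 with nonspecific IgG. The mice that gave the retinas are not numbered in the labels. A single list exists for each of the 4 targets at each age. No list names a replicate or carries a peak height, so a peak is either listed or not, no replicate error can be given, and no test was made. No IgG list was analysed here.

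Müller glia span the retina and serve its neurons as their main support cell. They clear glutamate and turn it into glutamine, carry away potassium and water, buffer carbon dioxide, handle retinoids for photoreceptors, and secrete lipid carriers and signalling proteins. SOX8 and SOX9 are related transcription factors of the SoxE group, and both are found in Müller glia. SOX9 is also present in the progenitors from which these glia arise, and several of the 10 genes are used by other cells: Apoe by microglia, Vim by progenitors and vessels, Rlbp1 by the pigment epithelium. H3K4me3 is a mark of active promoters, and H3K27ac of active promoters and enhancers.

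The promoter sequences are shown first, because the position of the SOX peaks relative to gene starts separates these genes. Each is the 250 bases before a start site in RefSeq (GRCm38.p6), written 5′ to 3′ along the gene. The table held start sites for 6 of the 10 genes. Glul and Vim had P2 SOX8 and P2 SOX9 peaks over this stretch, Apoe had a P17 SOX9 peak over it, and Rlbp1 had no SOX peak there. Fanci, the neighbour of Rlbp1, is shown because the SOX peaks recorded for Rlbp1 lay over its start, and it was chosen after this was seen. Capitals mark matches on either strand to 4 motifs. A first core of SOX family motifs was AACAAT. Another such core, known from related factors, was ACAAAG. The last of the SOX cores searched for here was ACAATG. The TATA box was searched for as TATAAA.
Glul, chr1:153899679-153899928, plus strand: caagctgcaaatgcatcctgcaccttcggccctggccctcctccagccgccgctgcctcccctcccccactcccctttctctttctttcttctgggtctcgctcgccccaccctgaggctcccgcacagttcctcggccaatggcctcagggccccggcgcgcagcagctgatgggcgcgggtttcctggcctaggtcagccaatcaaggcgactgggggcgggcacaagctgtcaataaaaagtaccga
Vim, chr2:13574061-13574310, plus strand: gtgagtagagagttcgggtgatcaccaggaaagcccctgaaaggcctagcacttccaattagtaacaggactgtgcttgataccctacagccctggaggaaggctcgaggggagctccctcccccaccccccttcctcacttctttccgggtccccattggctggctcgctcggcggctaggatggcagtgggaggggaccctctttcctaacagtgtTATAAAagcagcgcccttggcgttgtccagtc
Rlbp1, chr7:79387028-79387277, minus strand: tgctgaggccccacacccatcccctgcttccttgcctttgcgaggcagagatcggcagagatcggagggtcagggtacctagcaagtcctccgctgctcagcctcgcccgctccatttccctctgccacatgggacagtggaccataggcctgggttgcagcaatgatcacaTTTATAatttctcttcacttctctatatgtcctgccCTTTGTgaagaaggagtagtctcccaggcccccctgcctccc
Fanci, chr7:79392088-79392337, plus strand: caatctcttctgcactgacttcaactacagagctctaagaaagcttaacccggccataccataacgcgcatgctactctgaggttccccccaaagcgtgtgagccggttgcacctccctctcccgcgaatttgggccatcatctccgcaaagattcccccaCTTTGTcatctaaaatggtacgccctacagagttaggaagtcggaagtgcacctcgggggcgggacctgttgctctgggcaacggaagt
Apoe, outermost of 3 starts, chr7:19699189-19699438, minus strand: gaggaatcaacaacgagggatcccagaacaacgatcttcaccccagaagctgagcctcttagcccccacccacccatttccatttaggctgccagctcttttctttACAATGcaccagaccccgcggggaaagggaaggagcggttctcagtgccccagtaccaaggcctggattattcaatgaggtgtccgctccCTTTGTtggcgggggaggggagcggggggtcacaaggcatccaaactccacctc

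Glul and Vim, which had SOX peaks over these bases, held none of the SOX core letters there. Rlbp1, which had no SOX peak there, held ACAAAG on the opposite strand from -42 to -37 relative to its start. The stretches of Slc1a3 and Kcnj10, also without a SOX peak, held 0 core matches, as did those of the other 2 Apoe starts, which lay under the P17 SOX9 peak. The Fanci stretch, which lay under P2 SOX8 and SOX9 peaks, held ACAAAG on the opposite strand from -89 to -84. Apoe held ACAAAG on the opposite strand from -54 to -49 and ACAATG from -144 to -139. The TATA box letters lay from -32 to -27 at Vim. The same letters lay on the opposite strand from -78 to -73 at Rlbp1 and from -161 to -156 at Slc1a3. The second Apoe start held them from -100 to -95 on the opposite strand and from -96 to -91 on its own. Of 21263 such stretches before protein-coding genes, 8.22% held AACAAT on either strand. The share with the core ACAAAG among these stretches was 14.9%. For the remaining SOX core, that share was 9.35%, and 26.7% of the stretches held at least 1 of the 3 cores. The first and last cores can overlap each other in 5 letters. The TATA box letters were in 11.6% of the stretches. The stretches are short beside peaks of several kb, and a match describes letters only. GC content was 64.8% at Glul, 58.4% at Vim, 57.2% at Rlbp1, 54.4% at Fanci and 57.2% at Apoe, against a median of 55.6% over all stretches.

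The 10 genes carried SOX peaks mostly at P2. At that age SOX8 peaks lay at 6 genes, against 15.1% of all protein-coding genes, and SOX9 peaks at 7 genes, against 27.7%. At P17 SOX8 peaks lay at 1 gene, against 13.0% of all genes, and SOX9 peaks at 1 gene, against 15.7%. In all, 8 genes had a peak in at least 1 SOX list, against 33.9% of all genes, and Aqp4 and Clu had none. The 17 SOX peaks comprised 15 at P2 and 2 at P17. In whole retina, fewer cells of a type and less signal in each cell cannot be told apart.

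**Figure D1:**
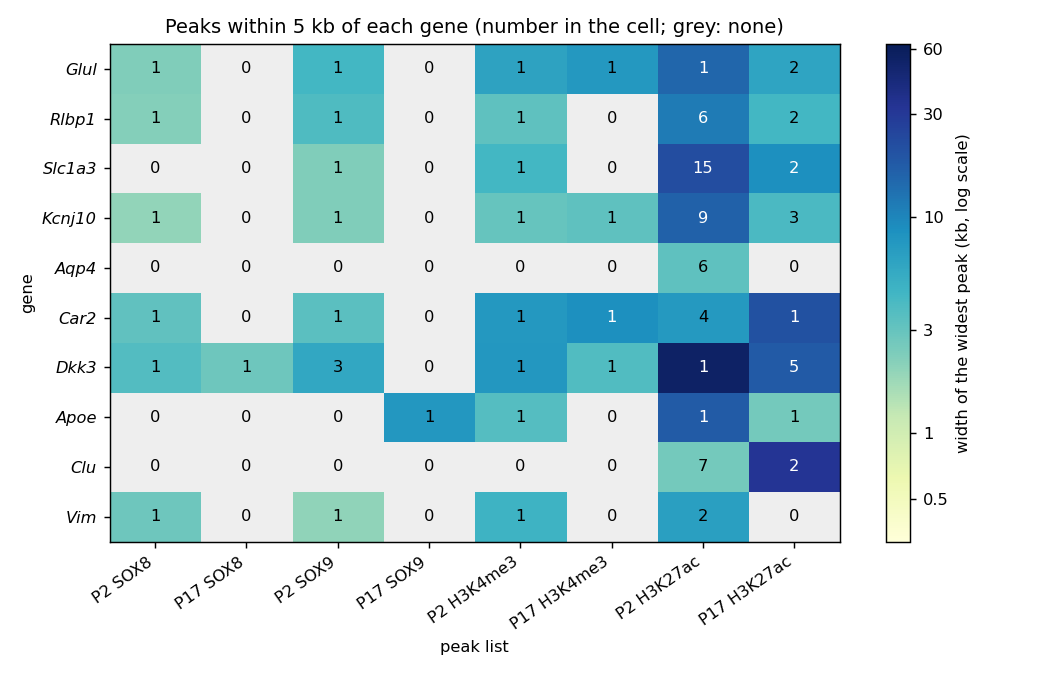
Number of peaks (printed in each cell) and width of the widest peak in kb (colour, log scale) within 5 kb of each of the 10 genes (rows) in each of the 8 lists (columns); grey cells have no peak. The P2 SOX columns are filled at 6 and 7 genes, and the P17 SOX columns at 1 gene each, Dkk3 for SOX8 and Apoe for SOX9.

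The genes were compared with others that had an H3K4me3 peak within 5 kb, since most SOX peaks of these lists lie at H3K4me3. P2 H3K4me3 peaks lay at 8 of the 10 genes, against 49.3% of all genes. Among genes with P2 H3K4me3, SOX8 peaks lay at 6 of these 8, against 29.8% of all such genes, and SOX9 peaks at 7 of 8, against 53.3%. P17 H3K4me3 peaks lay at 4 of the 10, namely Glul, Kcnj10, Car2 and Dkk3, against 50.9% of all genes. Among genes with P17 H3K4me3, SOX8 lay at 1 of these 4, against 23.1%, and SOX9 at 0 of 4, against 27.4%. Of the 7 genes with a P2 SOX9 peak, 6 also had a P2 SOX8 peak, against 52.1% of all genes with P2 SOX9. Slc1a3 had SOX9 alone. The H3K4me3 peaks counted for Kcnj10 overlapped its neighbour Pigm at both ages, and the P2 peak counted for Rlbp1 overlapped Fanci. Without peaks that overlap another gene, H3K4me3 lay at 6 of the 10 genes at P2 and at 3 at P17. The share of all genes was not counted this way, so the shares above are not its counterpart.

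From P2 to P17, SOX8 peaks went from present to absent at Glul, Rlbp1, Kcnj10, Car2 and Vim, or 5 of the 10 genes, against 7% of all genes. SOX9 peaks did so at 7 genes, against 16.4%. With the P2 SOX9 list limited to its widest 2855 peaks, the P17 number, 4 genes did so (Glul, Rlbp1, Car2 and Dkk3), against 6.9%. Counted only among genes with a P2 peak, 5 of 6 had no P17 SOX8 peak, against 46.4% of all genes, and 7 of 7 no P17 SOX9 peak, against 58.9%. H3K4me3 peaks went the same way at Rlbp1, Slc1a3, Apoe and Vim. These were 4 of 8 genes with the mark at P2, against 6.91% of all genes with the mark, or 4 of 10 against 3.40% of all genes. The P2 SOX8, SOX9 and H3K4me3 peaks counted for Rlbp1 all lay over the Fanci start. Gains were few. A P17 SOX9 peak without a P2 peak lay at Apoe alone among the 10, against 4.35% of all genes. For SOX8 and H3K4me3 there was none, against 4.94% and 5%. The lists of the ages differ in length (5476 SOX9 peaks at P2 and 2855 at P17), and age and list construction cannot be told apart.

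**Figure D2:**
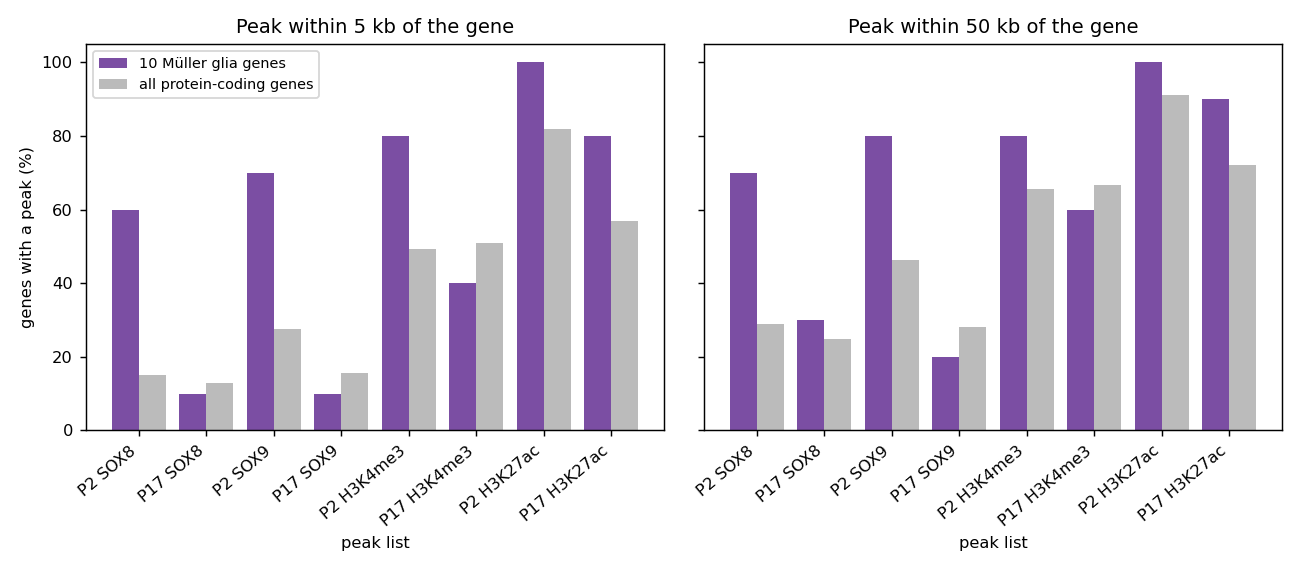
Share of the 10 genes (purple) and of all 21887 protein-coding genes (grey) with a peak, in percent, for each list, within 5 kb (left) and 50 kb (right) of the gene. At 5 kb the P2 SOX9 bars are 70% and 27.7%, and the P17 SOX9 bars 10% and 15.7%.

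Markers of other retinal cells moved in the same lists. SOX9 peaks lay at 1 of 5 markers used for rods (Gnat1, Pde6b, Sag, Nrl and Gnb1) at P2, the broadly used Gnb1, and at 5 of 5 at P17. SOX8 peaks lay at 2 of the 5 at P2 and 2 at P17. The widest P17 SOX8 and SOX9 peaks of Gnat1 were also counted for its neighbour Slc38a3. Of all genes, 27.7% had a SOX9 peak at P2 and 15.7% at P17, and for SOX8 the shares were 15.1% and 13.0%. SOX9 peaks lay at 3 of 3 progenitor markers (Fgf15, Ccnd1, Mki67) at P2 and at 0 of 3 at P17. H3K4me3 peaks lay at 4 rod and 3 progenitor markers at P2, and at 5 rod markers and 0 progenitor markers at P17. The part of a changing mix of cells in the changes at the 10 genes was not tested.

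Glul and Slc1a3 handle glutamate. Glul, on chromosome 1 at 153899929 to 153909723, encodes glutamine synthetase. Its P2 SOX8 peak covered 2293 bp (153898830 to 153901122) and ran from -1099 to 1193 bp relative to the start. The P2 SOX9 peak covered 4351 bp, took in the whole SOX8 peak, and was wider than 91.5% of P2 SOX9 peaks. Both SOX peaks were therefore at the promoter, over the sequence shown above. The H3K4me3 peak over the same start was 6260 bp wide at P2 and 7591 bp at P17, wider than 93.7% and 95.6% of its lists. Glul thus had the promoter mark in both lists and SOX peaks in the P2 lists only, and the nearest P17 SOX9 peak lay 563553 bp from the gene.

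Slc1a3, on chromosome 15 at 8634124 to 8710807, encodes the glutamate transporter GLAST and reads from the minus strand. Its P2 SOX9 peak of 2291 bp (8630662 to 8632952) lay 1172 bp beyond the 3′ end, on the other side of the gene from the start. No SOX8 peak lay within 50 kb at either age. A P2 H3K4me3 peak of 4295 bp covered the start, and no P17 H3K4me3 peak lay within 50 kb. The SOX9 peak shared no base with H3K4me3 and lay wholly inside a P2 H3K27ac peak of 20671 bp. Within 5 kb, Slc1a3 was the only one of the 10 genes with a SOX peak wholly outside the gene.

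Kcnj10 and Aqp4 encode the potassium channel Kir4.1 and the water channel aquaporin-4, which sit together in glial endfeet. Kcnj10 lies on chromosome 1 at 172341210 to 172374085. Its P2 SOX8 peak covered 1913 bp (172349227 to 172351139) and its P2 SOX9 peak 2295 bp (172348673 to 172350967), and they shared 1741 bp. Both lay inside the gene, the SOX9 peak from 7463 to 9757 bp after the start. Neither touched H3K4me3, and both lay wholly under H3K27ac at P2 and at P17. The SOX-bound stretch of Kcnj10 thus had H3K27ac in both ages' lists and SOX peaks in the P2 lists only. No H3K4me3 peak lay at the start of Kcnj10 at either age. The H3K4me3 peaks counted for this gene, of 2962 bp at P2 and 3209 bp at P17, lay more than 1 kb beyond its far end and overlapped Pigm, the next gene.

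Aqp4, on chromosome 18 at 15389394 to 15410982, had no SOX or H3K4me3 peak within 50 kb at either age. The nearest SOX peak was a P2 SOX9 peak 237313 bp away. Within 5 kb lay 6 P2 H3K27ac peaks of 443 to 3253 bp, and none at P17. With the P2 list limited to its widest 29909 peaks, the P17 number, Aqp4 had none at P2 either. Chromosome 18 itself held 57 to 159 peaks in each SOX list. Of all protein-coding genes, 19.2% showed the same pattern as Aqp4, a P2 H3K27ac peak and nothing else.

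Rlbp1 and Car2 serve the retinoid cycle and carbon dioxide exchange. Rlbp1, on chromosome 7 at 79374865 to 79392250 on the minus strand, encodes the retinaldehyde-binding protein CRALBP. Its P2 SOX8 peak covered 2167 bp (79391386 to 79393552) and its P2 SOX9 peak 3830 bp (79390929 to 79394758). These peaks lay at the outermost annotated end of Rlbp1, which is 88 bp from the start of Fanci, a DNA repair gene read in the opposite direction. The only Rlbp1 start in the table lies 5223 bp further in, and the SOX8 peak ran from -6525 to -4359 bp relative to it. The P2 H3K4me3 peak of 3264 bp also lay over the Fanci start and not over the Rlbp1 start. The SOX and H3K4me3 peaks counted for Rlbp1 could therefore equally be counted for Fanci.

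At P17 no SOX or H3K4me3 peak lay within 50 kb of Rlbp1. A P2 H3K27ac peak of 11461 bp (79382105 to 79393565) covered the Rlbp1 start and the end next to Fanci. Inside it, a P17 H3K27ac peak of 4329 bp (79384817 to 79389145) covered the Rlbp1 start shown above, and a second, of 889 bp, lay at the end next to Fanci. Only 27 of all protein-coding genes (0.123%) showed the pattern of Rlbp1, with both SOX factors and H3K4me3 at P2 only and H3K27ac at both ages.

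Car2, on chromosome 3 at 14886269 to 14900770, encodes carbonic anhydrase 2. Its P2 SOX8 peak covered 3196 bp (14885959 to 14889154) and lay wholly inside the P2 SOX9 peak of 3378 bp (14885950 to 14889327). Both spanned the low-coordinate end of the gene. H3K4me3 peaks of 7497 bp at P2 and 8661 bp at P17 spanned the same end and were wider than 96.9% and 97.4% of their lists. Car2 was like Glul in this respect: a wide H3K4me3 peak at both ages, with SOX peaks at P2 only. The table held no start site for Car2, so its peaks are placed at a gene end only. Glul, Kcnj10 and Car2 showed the same pattern of presence within 5 kb over the 8 lists, as did 884 of all protein-coding genes (4.04%). Kcnj10 did so through H3K4me3 peaks that overlapped Pigm and did not cover its own start.

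Dkk3, Apoe and Clu encode secreted proteins. Dkk3, a glycoprotein of the Dickkopf family, lies on chromosome 7 at 112116019 to 112159482 and had more SOX peaks within 5 kb than any other of the 10 genes. Within 5 kb lay 3 P2 SOX9 peaks: 5803 bp at 112127938 to 112133740, 5603 bp at 112141930 to 112147532, and 2876 bp at 112156858 to 112159733. Of the 6073 genes with a P2 SOX9 peak, 111 (1.83%) had 3 or more. The first 2 lay inside the gene, touched no H3K4me3, and were wider than 97.2% and 96.8% of the P2 SOX9 list. The third spanned the high-coordinate end, where the H3K4me3 peaks also lay, of 7740 bp at P2 and 3784 bp at P17.

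The SOX8 peaks of Dkk3 changed place between the ages. The P2 SOX8 peak (3659 bp, 112141825 to 112145483) shared 3554 bp with the middle SOX9 peak. The P17 SOX8 peak (2734 bp, 112128196 to 112130929) shared no base with it and lay wholly inside the stretch of the first P2 SOX9 peak, sharing 2734 bp. Dkk3 was the only one of the 10 genes with a P17 SOX8 peak within 5 kb, and no P17 SOX9 peak lay within 50 kb. H3K27ac overlapped all these peaks at both ages, with a single P2 peak of 54514 bp over the whole gene and 5 P17 peaks of 2979 to 17569 bp.

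Apoe, on chromosome 7 at 19696244 to 19701310 on the minus strand, encodes apolipoprotein E, the main lipid carrier made by glia. For SOX9 it was the only one of the 10 genes to go from absent at P2 to present at P17. No SOX8 or SOX9 peak lay within 5 kb at P2, and at P17 a SOX9 peak of 7775 bp (19697851 to 19705625) covered all 3 table starts and reached into Tomm40, the neighbouring gene. This peak was wider than 84.7% of P17 SOX9 peaks. The P2 H3K4me3 peak of 3569 bp over the starts had no P17 counterpart, so the P17 SOX9 peak shared 0 bp with P17 H3K4me3, 2170 bp with the place of the P2 H3K4me3 peak, and 1778 bp with P17 H3K27ac. Only 11 of all protein-coding genes (0.0503%) showed the pattern of Apoe. Clu, on chromosome 14 at 65968483 to 65981548, encodes clusterin, an extracellular chaperone. It had no SOX or H3K4me3 peak within 50 kb, and its nearest SOX peak, a P2 SOX9 peak, lay 314453 bp away.

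Vim, on chromosome 2 at 13574311 to 13582826, encodes vimentin, the intermediate filament of Müller glia and of progenitors. Its P2 SOX8 peak covered 2774 bp (13572929 to 13575702) and its P2 SOX9 peak 1957 bp (13573322 to 13575278), wholly inside the SOX8 peak. Vim was the only one of the 10 genes whose P2 SOX8 peak was wider than the P2 SOX9 peak that overlapped it. Both covered the start and the sequence shown above, under a P2 H3K4me3 peak of 4733 bp. At P17 no SOX8, SOX9, H3K4me3 or H3K27ac peak lay within 5 kb of Vim. Vim shared this pattern, 4 lists at P2 and none at P17, with 25 protein-coding genes in all, itself included (0.114%).

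**Figure D3:**
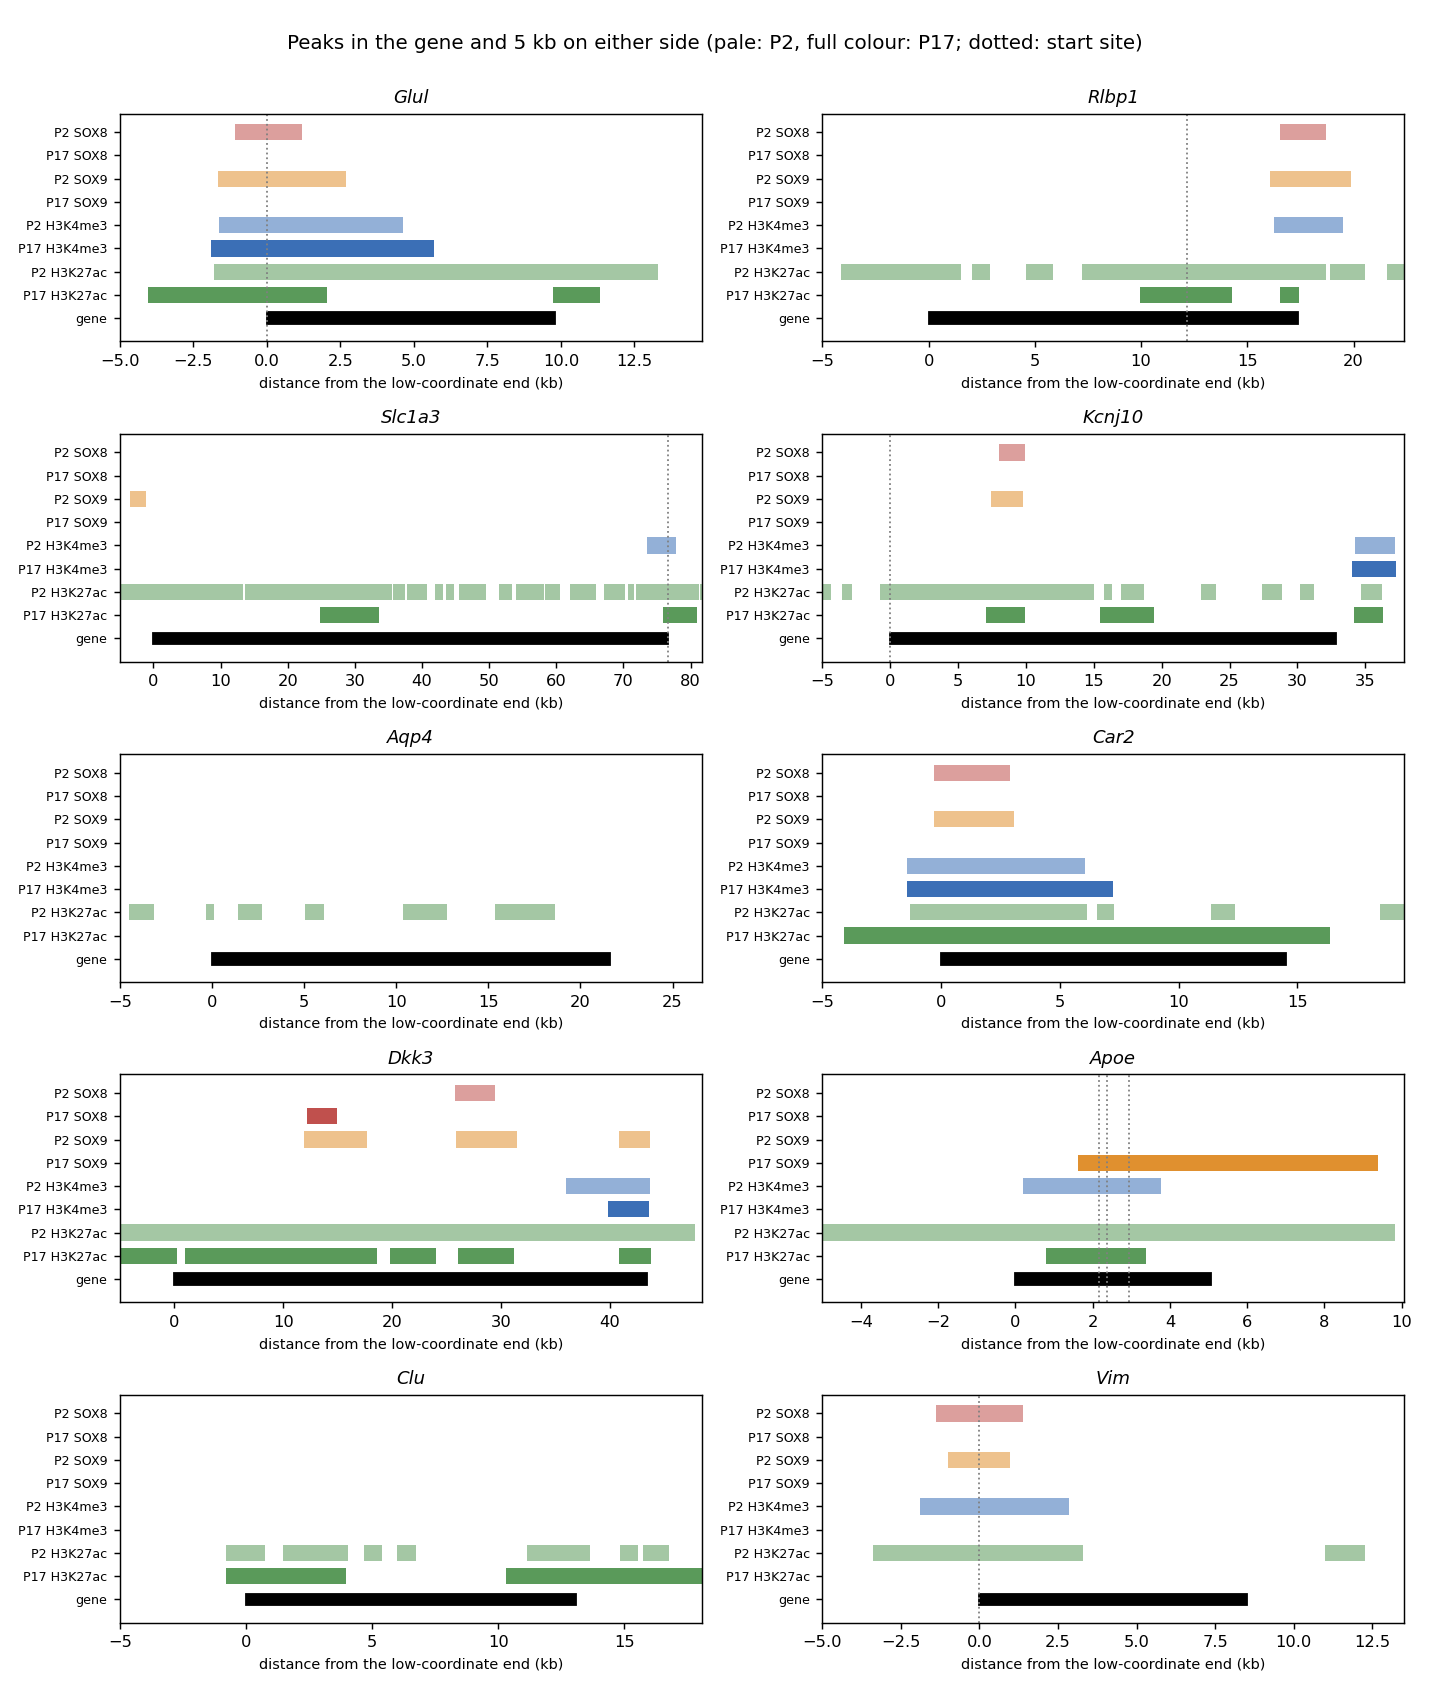
Peaks of the 8 lists (rows, pale for P2 and full colour for P17) in each gene and 5 kb on either side, with distance in kb from the low-coordinate end of the gene (black bar); dotted lines are start sites in the table. SOX peaks sit over the start at Glul and Vim, inside the gene at Kcnj10 and Dkk3, beyond the 3′ end at Slc1a3 and about 5 kb from the start at Rlbp1.

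The SOX peaks of these genes were then described as a set. Of the 6 P2 SOX8 peaks, 4 spanned an end of the gene and 2 lay inside it. Of the 9 P2 SOX9 peaks, 5 spanned an end, 3 lay inside and 1 lay outside. P2 H3K4me3 was overlapped by 4 of the 6 SOX8 peaks and 5 of the 9 SOX9 peaks, while in the whole lists 90.1% and 79.8% of peaks did so. All 15 P2 peaks overlapped P2 H3K27ac, as did 99.7% and 99.4% of the whole lists. All 6 SOX8 peaks overlapped SOX9, as did 94.5% of P2 SOX8 peaks. At P17, H3K27ac overlapped the place of 12 of the 15 P2 SOX peaks, while in the whole lists this held for 93% of P2 SOX8 and 87.2% of P2 SOX9 peaks. The exceptions were both peaks of Vim and the peak of Slc1a3.

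None of the 15 P2 SOX peaks shared a base with a P17 peak of the same factor, whereas in the whole lists 45.8% of P2 SOX8 and 31.1% of P2 SOX9 peaks did. Widths ran from 1913 to 3659 bp for P2 SOX8, with a median of 2534 bp, and from 1957 to 5803 bp for P2 SOX9, with a median of 3378 bp. The medians of the whole lists were 2217 and 2668 bp. Above these lay 4 of the 6 SOX8 peaks and 6 of the 9 SOX9 peaks.

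**Figure D4:**
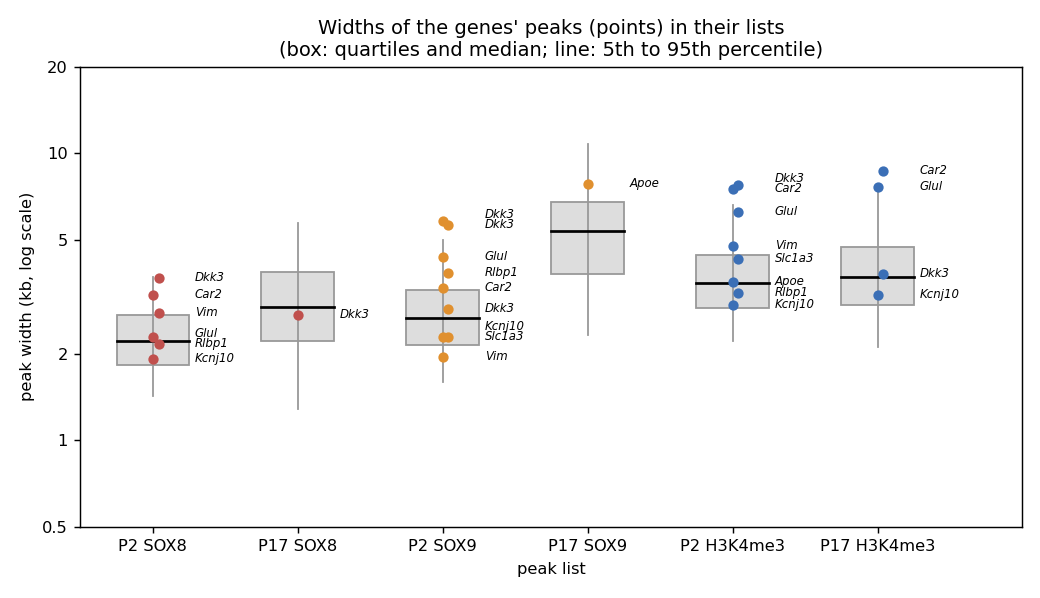
Width in kb (log scale) of each peak within 5 kb of the 10 genes (points, named) in 6 lists, over the quartiles and median (box) and the 5th to 95th percentile (line) of the whole list. The intragenic P2 SOX9 peaks of Dkk3 (5803 and 5603 bp) lie above the 95th percentile, and the P2 SOX peaks of Kcnj10 (1913 and 2295 bp) lie below the list medians.

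H3K27ac was present at all 10 genes at P2, against 81.8% of all genes, and at 8 genes at P17, against 57.0%. Aqp4 and Vim were without it at P17, so 2 of 10 went from present to absent, against 25.1% of all genes. The share of the window, the gene with its 5 kb flanks, that lay under H3K27ac was also measured. Its median over the 10 genes was 66.9% at P2 and 20% at P17, against 27.2% and 10% over all genes with H3K27ac at either age. At Apoe the share was 98.5% at P2 and 17.3% at P17. At Slc1a3 it was 89.5% and 16.0%, with 15 peaks at P2 and 2 at P17, over the start and inside the gene. These were among the larger falls of all genes with the mark: 0.64% of them had a lower difference than Apoe, and 1.40% than Slc1a3.

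Car2 and Clu stood against this. At Car2 the share under H3K27ac was 41.6% at P2 and 83.6% at P17, where a single peak of 20493 bp covered the whole gene. At Clu it was 42.4% and 54.2%, with a P17 peak of 32192 bp that ran past the gene. More bases lay under H3K27ac at P17 than at P2 at these 2 of the 10 genes, against 24.3% of all genes with the mark. The P2 H3K27ac list is far longer, with 287845 peaks against 29909. With the P2 list limited to its widest 29909 peaks (tried once the list lengths were known), Car2 and Clu were still the 2 genes with more at P17, while 63.2% of the 14074 genes with H3K27ac in either of these lists then had more at P17. With that shortened list the median P2 share was 51.2% over the 10 genes, above the 20% at P17. Over all genes with the mark it was 0%, below the 10% at P17, so the direction of that median turned with the list length. The P2 share was 0% at Clu and Aqp4 and 30.3% at Car2, and at Glul, Dkk3 and Apoe it was the same as with the whole list.

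**Figure D5:**
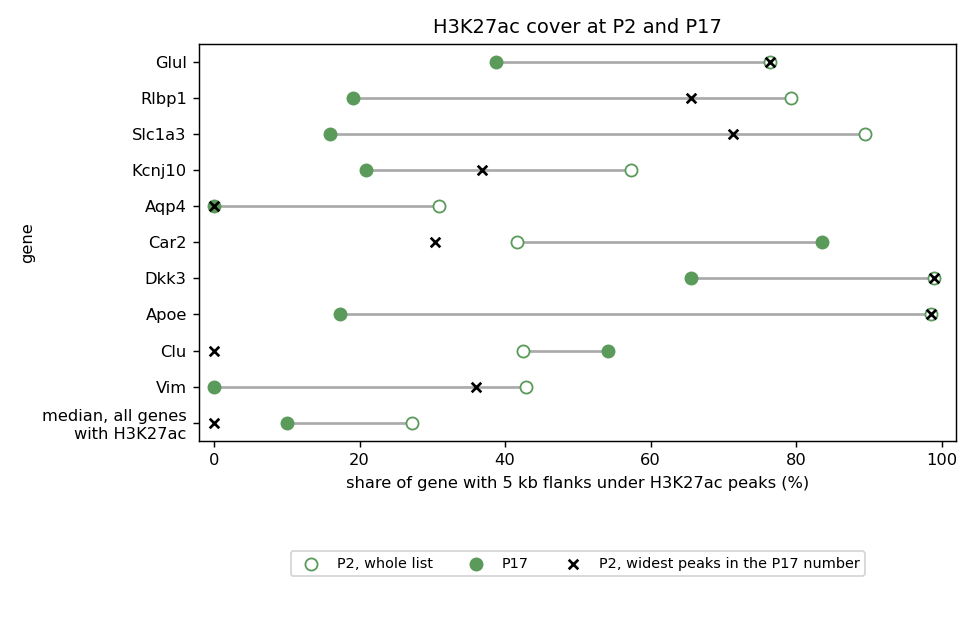
Share of each gene with its 5 kb flanks that lay under H3K27ac peaks, in percent, at P2 (open circles), at P17 (filled circles) and at P2 with only the widest peaks in the P17 number (crosses). Car2 and Clu lie higher at P17 than at P2, the other 8 genes and the median of all genes with the mark (27.2% and 10%) lie lower.

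Within 50 kb, SOX8 peaks lay near 7 of the 10 genes at P2, against 28.8% of all genes, and near 3 at P17, against 24.8%. SOX9 peaks lay near 8 at P2, against 46.2%, and near 2 at P17, against 28.2%. This distance added Kcnj10 and Apoe to the genes with SOX peaks in some lists, through peaks that lay at other genes. At Dkk3 it added a P2 SOX9 peak of 2919 bp (112169918 to 112172836), which overlapped no other gene. Near Kcnj10 at P17, 2 SOX9 peaks of 7674 and 7046 bp overlapped Igsf8, the latter also Kcnj9, and a SOX8 peak of 3178 bp overlapped Kcnj9. Near Apoe, SOX peaks at both ages covered starts of Tomm40, Nectin2 and Clptm1. H3K4me3 lay within 50 kb of 8 genes at P2, against 65.5%, and 6 at P17, against 66.7%. H3K27ac lay within 50 kb of 10 genes at P2, against 91.1%, and of 9 at P17, against 72.0%, with Aqp4 the gene without it.

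Other genes of the same functions were counted for comparison, 56 genes in 7 lists of 8. P2 SOX9 peaks lay at 21 of the 56 and P17 SOX9 peaks at 12, while SOX8 peaks lay at 5 at P2 and 11 at P17. Of all protein-coding genes, 27.7% had a SOX9 peak at P2 and 15.7% at P17, and for SOX8 the shares were 15.1% and 13.0%. By list, SOX8 peaks lay at 2 genes at P2 and 3 at P17 for glutamate, 0 and 2 for pH and lactate, and 0 and 3 for lipid transport. They lay at 0 and 1 for the glial cytoskeleton. Potassium and water, and retinoid handling, had 1 and 1 each. Only for Wnt modulators did the count fall, from 1 to 0. P2 SOX9 lay at 5 of 8 genes of glutamate uptake and recycling, 5 of 8 of lipid transport and 4 of 8 of retinoid handling. It lay at 3 of 8 genes of the glial cytoskeleton, 2 of 8 of pH and lactate, 1 of 8 of potassium and water and 1 of 8 Wnt modulators. H3K4me3 lay at 34 of the 56 at P2 and 32 at P17, against 49.3% and 50.9% of all genes.

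Of these genes the widest SOX9 peak at either age was at Lrp1, a receptor for apolipoprotein E, with 19978 bp at P17, and its widest at P2 had 4941 bp. Slc38a3, a glutamine transporter, had widest SOX9 peaks of 3195 bp at P2 and 17688 bp at P17, and a P17 SOX8 peak of 9569 bp. These widest P17 peaks of Slc38a3 were also the ones counted for its neighbour Gnat1, the rod transducin gene, so they cannot be assigned to either. Plec, which links intermediate filaments, had widest SOX9 peaks of 4000 bp at P2 and 15303 bp at P17. These 3 had their wider SOX9 peak at P17, where none of the 10 genes apart from Apoe had one. The whole SOX9 list was also wider at P17, with a median of 5336 bp against 2668 bp at P2. Dhrs3, a retinaldehyde reductase, and the water channel gene Aqp1 had a SOX9 peak at P17 only, of 6753 and 6320 bp. Abcg1, a sterol exporter, had SOX9 peaks of up to 6046 bp at P2 and none at P17, and a P17 SOX8 peak of 3804 bp. Vldlr, a lipoprotein receptor, had SOX9 peaks of 2944 bp at P2 and 5701 bp at P17. Atp1b2, a subunit of the sodium pump, had peaks in all 4 SOX lists, between 2692 and 5085 bp wide.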

How the data were processed

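CUT&RUN libraries were made from retinal nuclei at P2 and P17, 24 in all. The authors deposited 8 peak lists as chromosome, start and end, with 349901 peaks. The deposited score was 0 in every peak and was not used. Bowtie2, SEACR and GRCm38 are named in the submitters' processing notes, without versions or settings. How libraries were combined, the threshold and the use of IgG are not given in the sources used here, and the depth is unknown. Lists that differ in either would differ in which peaks they hold and in peak width.

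Genes and start sites came from RefSeq tables of GRCm38.p6, the same build. The tables give no exons, so peaks are placed against gene ends only. Positions count from 1. A gene had a peak when at least 1 bp of a peak lay in the gene or within 5 kb (second distance 50 kb). Overlaps and covered bases were computed with Python 3.11.15, numpy 2.4.6 and pandas 2.3.3 and tested on simulated data. No error or p-value is given, since lists hold no replicates. The 10 genes were named by symbol, and other genes by function lists and by the width of their SOX9 peak. The genes and lists were chosen with earlier results of these data known. Alternatives were other distances, peak centres, 50% of a peak, wider peaks, start sites, shortened lists and peaks away from other genes. Some marker genes are not reported here.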

Additional observations from a re-analysis of the deposited data

How the results depend on the processing

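Of 76 alternative counts, 58 stayed within 1.5 times the reported count, among them all that used the gene body only, the peak centre or 50% of the peak. Within 5 kb of a start site, which only 6 genes have in the table, counts fell to 3 for P2 SOX8, 0 for P17 SOX8, 3 for P2 SOX9, 5 and 1 for P2 and P17 H3K4me3, and 6 and 4 for P2 and P17 H3K27ac. With 50 kb flanks, P17 SOX8 lay at 3 genes and P17 SOX9 at 2, and genes with a P2 and no P17 peak numbered 2 for H3K4me3 and 1 for H3K27ac. With the wider 50% of each list, P2 SOX9 lay at 4 genes, P17 SOX8 at 0, and 4 genes had a P2 and no P17 SOX9 peak. With the widest P2 peaks in the P17 number, P2 SOX9 lay at 4 genes (Glul, Rlbp1, Car2 and Dkk3), against 14.5% of all genes. All of these 4 had no P17 SOX9 peak, as did 1511 of the 3169 genes with a peak in that shortened P2 list. Of all genes, 6.9% had such a P2 peak and no P17 peak. For H3K27ac, 1 gene, Vim, then had a P2 and no P17 peak, since the shortened P2 list held no peak at Aqp4. No share of all genes is given here for the counts by start site, with the wider 50% of each list or without peaks that overlap another gene. Without peaks that overlap another gene, tried once the Fanci overlap was known, P17 SOX9 lay at 0 genes, since the peak at Apoe reaches Tomm40. P2 SOX8 then lay at 5 genes and P2 SOX9 at 6, with Rlbp1 left out of both. The alternatives differ in which genes, sequence or peaks were counted. By start site, P2 SOX9 was no longer counted at Car2 and Dkk3, which have no start in the table. The same held for Kcnj10 and Slc1a3, whose P2 SOX9 peaks lay more than 5 kb from their starts. No paired analysis was possible because no list names a replicate. Leaving out a replicate was not possible for the same reason.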

Other observations

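Markers of other cell types of the eye were counted in the same way, within 5 kb of the gene. Of 5 pigment epithelium markers, only Best1 had a SOX peak, from P2 SOX9, and 1 had H3K4me3 at each age. Of 4 microglia markers (Cx3cr1, P2ry12, Tmem119, Csf1r), none had a SOX or H3K4me3 peak at either age. Of 4 endothelial markers, Kdr had a P2 SOX9 peak. Of 4 astrocyte markers, Pax2 had a P17 SOX8 peak, and Gfap had no SOX peak. H3K27ac lay at 4 microglia, 4 endothelial, 4 astrocyte and 4 pigment epithelium markers at P2. At P17 it lay at 0, 2, 2 and 1 of them. Of all protein-coding genes, 81.8% had an H3K27ac peak at P2 and 57.0% at P17.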
